A study of Homo sapiens with 6 samples.

Results

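FOS, FOSB, FOSL1, FOSL2, JUN, JUNB and JUND are the 4 FOS family and 3 JUN family genes, whose proteins pair to form the transcription factor AP-1. They were found by their Ensembl IDs, and all 7 were among the 58288 genes of the expression table. Their levels were compared between rescues by 2 SUMO mutants of MYB in K562, a human erythroleukemic cell line. K562 clones stably expressed FLAG- and HA-tagged 2KR-MYB, in which the lysines that accept SUMO are replaced by arginine, or ANAA-MYB, in which the motif that binds SUMO is mutated. All cells were kept in 200 µg/ml G418 and carried the siRNA si2992, which is directed at endogenous MYB and spares the constructs, and RNA was taken 24 h after its transfection. There were 3 replicates of each rescue. Each mutant was represented by 1 clone, so an effect of the mutant and a property of its clone cannot be told apart.

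AP-1 is a dimer held together by leucine zippers. JUN proteins can pair with each other or with a FOS protein, whereas FOS proteins need a JUN partner to bind DNA. The dimers recognise the sequence TGACTCA (the phorbol ester response element, TRE) and the longer TGACGTCA (the cyclic AMP response element, CRE). JUN and FOS are classical immediate early genes, which are transcribed within minutes of a growth factor or stress signal through the ERK, JNK and p38 kinases, and their mRNAs are short-lived. JUNB and JUND often act against JUN on growth. In myeloid cells AP-1 is known for its part in monocytic and megakaryocytic differentiation.

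Expression was measured as FPKM, the number of fragments scaled to transcript length and library size. Levels were compared between genes and between libraries on this scale, although how libraries were scaled against each other is not known. The depth behind the values is unknown. The FPKM of a library summed to 579920 to 601877 in the 2KR-MYB rescue and to 583555 to 633662 in the ANAA-MYB rescue. The test was limma on log2(FPKM + 1) over the 12634 genes whose mean reached 1 FPKM, always as 2KR-MYB minus ANAA-MYB, with a Benjamini-Hochberg adjusted p under 0.01 as the threshold. This scale understates differences of genes with low values. Of all tested genes 13.0% passed, with 5.57% higher and 7.42% lower in the 2KR-MYB rescue. Over all tested genes the median log2 fold change was -0.015. An exact permutation test over libraries, two-sided, was run on single values. It cannot give a p below 0.1 with 3 against 3. MYB itself, whose row also takes up reads from the constructs, measured 53.6, 55.3 and 62 FPKM in the ANAA-MYB rescue, against 69, 61.2 and 67.5 FPKM with 2KR-MYB. The log2 fold change, 0.21 (SE 0.07), had an adjusted p of 0.062 in limma and did not pass.

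The upstream sequences of JUN, JUNB and FOSL2, the 3 members with an adjusted p under 0.05, are shown first, because AP-1 and CRE-binding factors act through short elements in such regions. They are the 250 bases before the transcription start in RefSeq (GRCh38.p14), 5′ to 3′ on the strand of the gene. Capitals mark TGACATCA, TGACG on either strand (the first bases of the CRE) and TATAAA. The 3 regions are chr1:58784048-58784297 (minus strand) for JUN, chr19:12791236-12791485 (plus strand) for JUNB and chr2:28392608-28392857 (plus strand) for FOSL2.
JUN: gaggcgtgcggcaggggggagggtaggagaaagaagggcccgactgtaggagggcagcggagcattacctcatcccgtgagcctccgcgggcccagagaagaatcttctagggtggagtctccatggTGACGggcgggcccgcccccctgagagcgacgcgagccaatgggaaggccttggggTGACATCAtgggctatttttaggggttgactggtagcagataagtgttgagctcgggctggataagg
JUNB: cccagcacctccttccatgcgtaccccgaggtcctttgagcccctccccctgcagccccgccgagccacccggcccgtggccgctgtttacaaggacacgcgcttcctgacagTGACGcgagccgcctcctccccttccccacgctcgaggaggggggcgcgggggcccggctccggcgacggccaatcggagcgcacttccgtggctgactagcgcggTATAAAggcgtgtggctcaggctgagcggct
FOSL2: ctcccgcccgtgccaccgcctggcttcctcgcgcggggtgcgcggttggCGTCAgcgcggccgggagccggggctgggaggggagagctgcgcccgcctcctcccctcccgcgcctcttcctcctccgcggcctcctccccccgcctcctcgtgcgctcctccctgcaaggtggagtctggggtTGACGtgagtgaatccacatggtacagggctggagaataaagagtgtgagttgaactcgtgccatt

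RefSeq held such a window for 6 of the 7 genes, all but FOSL1. Each window of 300 bases (250 before and 50 after the start) was searched on both strands. TGACG was present in 6 of 6 windows, and in 25% of all 27305 promoters. This motif was added to the search after the sequences had been seen, and it overlaps every CRE. Its first base, read along the strand of the gene, lay 64 bases before the start in FOS, 60 in FOSB, 66 and 201 in FOSL2, 123 in JUN, 137 in JUNB, and 86, 197 and 200 in JUND. The positions of FOS, FOSB and FOSL2 thus fell within a few bases of each other. With only the 150 bases before the start it was again present in 6 of 6 windows, against 15.9% of all promoters.

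The other elements divided the genes. TGACATCA, a variant with 1 base more than the TRE, was found in JUN alone, 67 bases before its start, and in 2.71% of all promoters. The complete CRE TGACGTCA was found only in JUND (1.98% of promoters), and the complete TRE TGACTCA only in FOSL2 (4.92%), just after its start. FOS, FOSB and JUNB carried TATAAA 33, 30 and 31 bases before the start (12% of promoters), and JUN, JUNB and JUND carried CCAAT (35.7%). The SP1 sequence GGGCGG was in 5 of 6 windows (44.6% of promoters). AACNG, the core that MYB recognises, was also in 5 of 6, all but JUN, but it occurred in 77.1% of promoters. In the 150 bases before the start alone it was in 2 of 6 and in 52.1% of promoters. The CArG box bound by serum response factor, as strictly written, matched in none of the 6 windows and in 1.29% of promoters. Elements more than 250 bases before the start lay outside the windows and could not be found. These matches describe letters in a reference sequence. Binding was not analysed here.

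JUN and JUNB, both of the JUN family, differed in opposite directions between the rescues. JUN was higher in the 2KR-MYB rescue by 1.54-fold and was the only 1 of the 6 tested members to pass the threshold, against 13.0% of all tested genes. JUNB was 1.4-fold higher in the ANAA-MYB rescue without passing it. Libraries of the 2 rescues did not overlap for 5 of the 6 tested members, 4 with the higher values in the 2KR-MYB rescue and 1 with the lower; this was also so for 44.9% of all tested genes, so separation by itself is common in this comparison. At an unadjusted p under 0.05 there were 4 of the 6, against 39.4% of all tested genes, and at an adjusted p under 0.05 there were 3, JUN, FOSL2 and JUNB, against 26.9%.

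**Figure D1:**
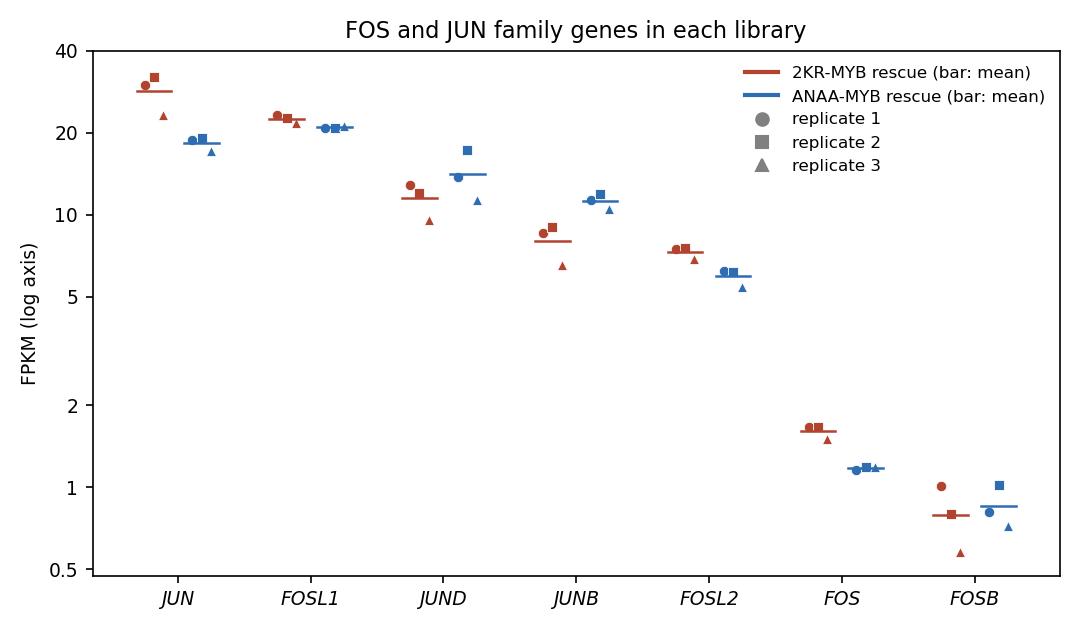
FPKM (log axis) of the 7 genes in each library, ordered by mean level, with 1 point per library, a symbol per replicate and a bar at the mean of each rescue. The 3 JUN values of the 2KR-MYB rescue lie above and the 3 JUNB values below those of the ANAA-MYB rescue, while JUND and FOSB overlap.

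JUN (ENSG00000177606, chr1:58780791-58784047) encodes c-Jun, the most strongly activating JUN protein and the main substrate of the JNK kinases. The values were 29.9, 32 and 23.2 FPKM with 2KR-MYB and 18.9, 19.1 and 17.1 FPKM with ANAA-MYB. Even the lowest 2KR-MYB library, the third, lay above the highest ANAA-MYB library. The means were 28.4 ± 4.58 and 18.4 ± 1.09 FPKM (SD, n = 3 each). The log2 fold change was 0.59 (SE 0.11, 95% interval 0.34 to 0.84), with an adjusted p of 0.0064 in limma and the smallest possible p of 0.1 in the exact permutation test. JUN stood at percentile 70.9 of the tested genes in the 2KR-MYB rescue and at percentile 58.2 in the ANAA-MYB rescue. With any 1 library left out the log2 fold change was 0.50 to 0.72. Its direction could not change, since the rescues did not overlap, but the call was not always kept. Without the first or second 2KR-MYB library the limma adjusted p was 0.026 and 0.021, without ANAA-MYB replicate 1, 2 or 3 it was 0.018, 0.018 and 0.026, and only without the third 2KR-MYB library did it pass, at 0.00074. With no filter on low values it was 0.037. In RNA from a bulk culture, more cells that express a gene and more RNA per cell cannot be told apart.

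JUNB (ENSG00000171223, chr19:12791486-12793315), a JUN protein that activates more weakly and can restrain JUN, had values of 8.56, 9 and 6.55 FPKM with 2KR-MYB. With ANAA-MYB they were 11.3, 11.9 and 10.5 FPKM. All 3 ANAA-MYB libraries lay above all 3 of 2KR-MYB, the reverse of JUN. The means were 8.04 ± 1.31 and 11.2 ± 0.708 FPKM (SD, n = 3 each), with a log2 fold change of -0.45 (SE 0.11, 95% interval -0.70 to -0.20, adjusted p = 0.019; exact permutation p = 0.1). In the 17 other settings tried, most of which could not reverse the sign, the values were -0.52 to -0.32 and the limma adjusted p 0.012 to 0.074.

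JUND (ENSG00000130522, chr19:18279694-18281622), the JUN gene that is expressed most constantly and is associated with slow growth, had values of 12.9, 12 and 9.59 FPKM with 2KR-MYB. With ANAA-MYB they were 13.8, 17.3 and 11.3 FPKM. The third ANAA-MYB library lay inside the 2KR-MYB range, so the groups overlapped. The log2 fold change was -0.26 (SE 0.15, 95% interval -0.61 to 0.085, adjusted p = 0.23), and the exact permutation p was 0.3. JUND had the most GC-rich transcript of the 7 genes (69.9%, against 64.9% for JUNB and 56.1% for JUN). After removal of each library's trend on GC content, which was added after the data had been seen, its log2 fold change was -0.075, while JUNB stood at -0.33 and JUN at 0.61.

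FOSL1 (ENSG00000175592, chr11:65892049-65900545), which encodes FRA-1, the FOS protein that lacks a strong activation domain and accumulates under sustained ERK signalling, was by far the most abundant FOS family mRNA. The values were 23.3, 22.6 and 21.7 FPKM with 2KR-MYB and 20.8, 20.8 and 21.2 FPKM with ANAA-MYB. The groups did not overlap, but the gap between them was narrow and the means differed by only 1.08-fold (22.6 ± 0.811 and 20.9 ± 0.221 FPKM, SD, n = 3 each). The log2 fold change was 0.10 (SE 0.049, 95% interval -0.011 to 0.22, adjusted p = 0.16).

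FOSL2 (ENSG00000075426, chr2:28392858-28417317) encodes FRA-2, its close relative. The values were 7.52, 7.58 and 6.88 FPKM with 2KR-MYB and 6.24, 6.19 and 5.43 FPKM with ANAA-MYB. The ranges were fully apart, with 2KR-MYB above. The means of 7.33 ± 0.386 and 5.96 ± 0.453 FPKM (SD, n = 3 each) differed by 1.23-fold, with a log2 fold change of 0.26 (SE 0.075, 95% interval 0.088 to 0.43, adjusted p = 0.036), which missed the threshold.

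FOS (ENSG00000170345, chr14:75278828-75282230), the cellular counterpart of a retroviral oncogene, was near the lower end of the tested genes, at percentile 7.42 in the 2KR-MYB rescue and 3.73 in the ANAA-MYB rescue. The values were 1.67, 1.66 and 1.5 FPKM with 2KR-MYB and 1.16, 1.19 and 1.19 FPKM with ANAA-MYB. The groups did not overlap, and the ANAA-MYB libraries lay very close together. The ratio of the means was 1.36 (1.61 ± 0.0987 and 1.18 ± 0.0158 FPKM, SD, n = 3 each), and the log2 fold change was 0.26 (SE 0.094, 95% interval 0.042 to 0.47, adjusted p = 0.077). With a pseudocount of 0.01 in place of 1 the log2 fold change was 0.44, still without passing (adjusted p = 0.084).

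FOSB (ENSG00000125740, chr19:45467996-45475179), best known for a stable splice form in neurons, had a mean of 0.825 FPKM and was not tested in limma. The values were 1.01, 0.797 and 0.58 FPKM with 2KR-MYB and 0.816, 1.02 and 0.724 FPKM with ANAA-MYB. The ranges overlapped (exact permutation p = 0.7).

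**Figure D2:**
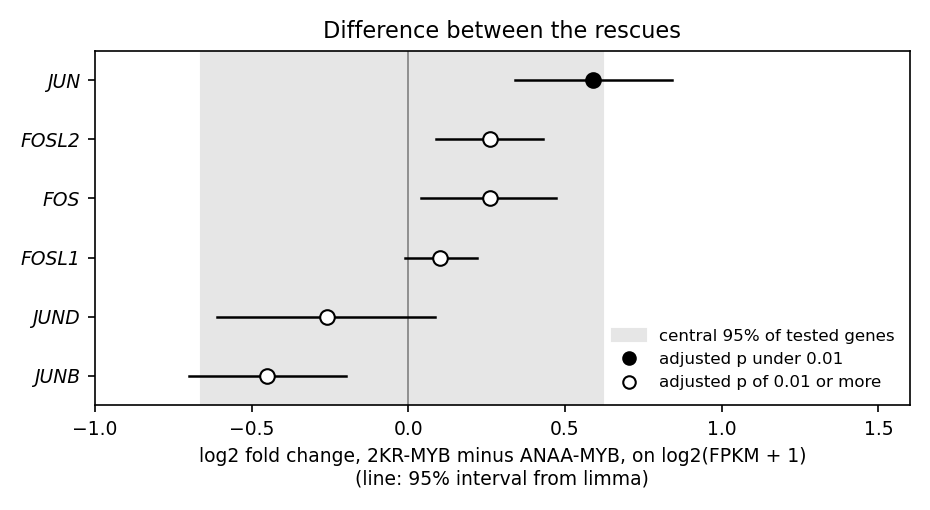
Log2 fold change (2KR-MYB over ANAA-MYB, from log2(FPKM + 1)) of the 6 tested members, with the 95% interval from limma as a line and the point filled where the adjusted p was under 0.01. Only JUN, at 0.59, is filled, and JUNB, at -0.45, has its whole interval below 0; every point lies inside the grey band from -0.66 to 0.62 that holds the central 95% of tested genes.

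The third 2KR-MYB library had the lowest level of its rescue for each of the 7 genes, and the third ANAA-MYB library the lowest of its rescue for JUN, JUNB, JUND, FOSL2 and FOSB. Ratios between members within a library do not depend on a single factor that scales the whole library. A trend on GC content can still move them, and they were not computed again after its removal. The log2 fold changes were then 0.61 for JUN, -0.33 for JUNB and -0.075 for JUND, against 0.59, -0.45 and -0.26 before. The ratios given here were chosen after the values had been seen. The ratio of JUN to JUNB was 3.49, 3.55 and 3.54 in the 2KR-MYB rescue and 1.67, 1.61 and 1.63 in the ANAA-MYB rescue. Its means of 3.53 ± 0.0303 and 1.64 ± 0.0313 (SD, n = 3 each; exact permutation p = 0.1, the smallest possible) lay far outside the spread of either rescue. The ratio of JUN to JUND was 2.32, 2.65 and 2.42 in the 2KR-MYB rescue against 1.37, 1.1 and 1.51, also with no overlap. The ratio of JUNB to JUND did overlap, at 0.663 to 0.747 against 0.687 to 0.928 (exact permutation p = 0.2).

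The summed mRNA of the 7 genes did not separate the rescues. It was 84.9, 85.7 and 70 FPKM with 2KR-MYB and 73, 77.5 and 67.5 FPKM with ANAA-MYB (80.2 ± 8.84 and 72.7 ± 5.05 FPKM, SD, n = 3 each; exact permutation p = 0.3). The 3 JUN family genes together stood, in the same order, at 51.4, 53 and 39.3 FPKM against 43.9, 48.3 and 38.9 FPKM, which overlapped (exact permutation p = 0.4). The 4 FOS family genes together stood at 33.5, 32.7 and 30.7 FPKM against 29, 29.2 and 28.5 FPKM, without overlap (32.3 ± 1.47 and 28.9 ± 0.344 FPKM, SD, n = 3 each; exact permutation p = 0.1), and most of this sum was FOSL1. The FOS family made up 40.5 ± 2.96% of the sum of the 7 genes in the 2KR-MYB rescue and 39.9 ± 2.33% in the ANAA-MYB rescue (SD, n = 3 each; exact permutation p = 0.8).

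The shares of 5 of the 7 genes in that sum, those of the 3 JUN family genes, FOS and FOSL2, did separate the rescues. JUN made up 35.2, 37.3 and 33.1% in the 2KR-MYB rescue and 25.8, 24.6 and 25.4% in the ANAA-MYB rescue. JUNB made up 10.1, 10.5 and 9.36% against 15.5, 15.3 and 15.6%, and JUND 15.2, 14.1 and 13.7% against 18.9, 22.3 and 16.8%. FOS made up 1.97, 1.94 and 2.14% against 1.6, 1.54 and 1.77%, and FOSL2 8.85, 8.85 and 9.83% against 8.55, 7.98 and 8.05%. Each of these 5 shares was without overlap between the rescues (exact permutation p = 0.1 for each), and shares of 1 sum are not independent of each other. The FPKM of JUND itself overlapped. Levels of single genes were without overlap for 44.9% of all tested genes. How often shares of other gene sets separate was not computed. The shares of FOSB and FOSL1 overlapped. FOSB held 0.984 ± 0.188% and 1.17 ± 0.128% (SD, n = 3 each; exact permutation p = 0.3). FOSL1 held 28.3 ± 2.41% and 28.9 ± 2.32% (SD, n = 3 each; exact permutation p = 0.7).

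**Figure D3:**
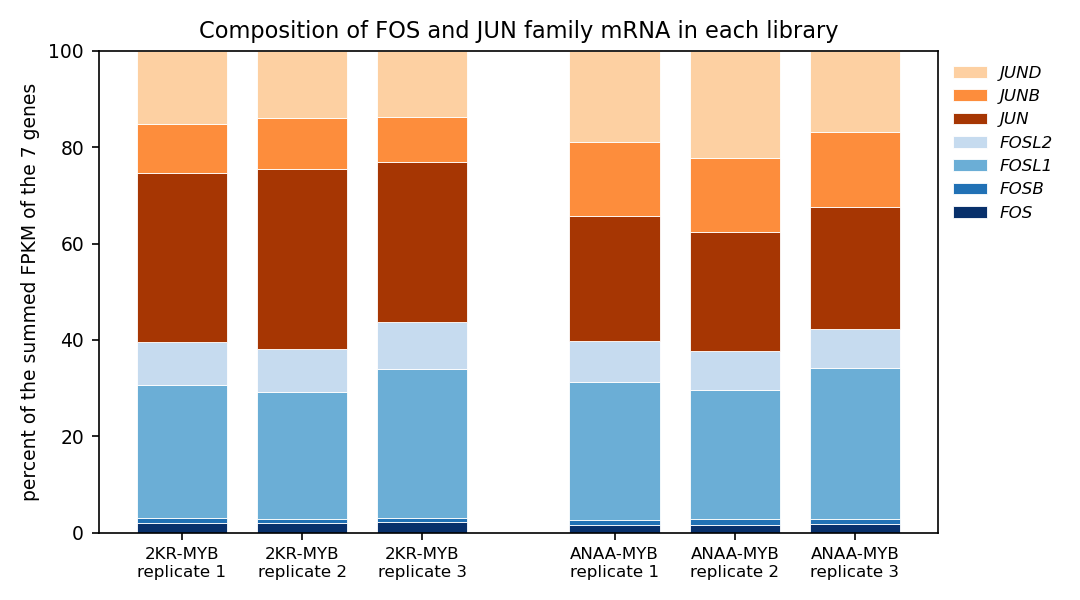
Each gene as a percent of the summed FPKM of the 7 genes, in each library (stacked bars from 0, blue shades for the FOS family, orange shades for the JUN family). The JUN block is 33.1 to 37.3% high in the 2KR-MYB libraries and 24.6 to 25.8% in the ANAA-MYB libraries, and the blue blocks together are of similar height in both rescues.

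The order of levels also differed at the top. In the 2KR-MYB rescue JUN (23.2 to 32 FPKM) stood above FOSL1 (21.7 to 23.3 FPKM), in 3 of 3 libraries, although their ranges overlapped. In the ANAA-MYB rescue FOSL1 (20.8 to 21.2 FPKM) stood above JUN (17.1 to 19.1 FPKM) with no overlap. The ratio of FOSL1 to JUN was 0.78, 0.709 and 0.936 in the 2KR-MYB rescue and 1.1, 1.09 and 1.24 in the ANAA-MYB rescue. Below them came JUND, JUNB, FOSL2, FOS and FOSB in both rescues. The neighbours whose ranges overlapped were JUNB and FOSL2 in the 2KR-MYB rescue, and JUN and JUND as well as JUND and JUNB in the ANAA-MYB rescue.

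The genes around the members were examined through lists of the AP-1 pathway. Across 8 lists, 18 of 100 tested genes passed the threshold, 10 with the higher level in the 2KR-MYB rescue and 8 with the lower. Of all tested genes 13.0% passed, 5.57% higher and 7.42% lower, and the count of each list is to be read beside these shares. The lists were chosen with earlier results of these data known, so the counts are a description and no test of the lists. Values are given for the 2KR-MYB libraries against the ANAA-MYB libraries, in the order of the replicates. Among other leucine zipper proteins that can pair with FOS or JUN proteins, 10 of 13 were tested, 2 were higher and 0 lower in the 2KR-MYB rescue. The median log2 fold change was 0.16. ATF3, a stress-induced factor that pairs with JUN, stood at 12.4, 15 and 10.4 FPKM against 7.06, 5.89 and 6.45 FPKM (log2 fold change 0.85, adjusted p = 0.002). ATF4, the main factor of the integrated stress response, stood at 299, 305 and 272 FPKM against 233, 217 and 225 FPKM (log2 fold change 0.37, adjusted p = 0.0026). The ATF4 call was lost without the first or second 2KR-MYB library (adjusted p = 0.013 for each) or the second ANAA-MYB library (adjusted p = 0.012).

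Among 17 other immediate early genes, which share signals with FOS and JUN, 11 were tested and 5 were higher in the 2KR-MYB rescue, where 5.57% of all tested genes were. None was lower, and the median log2 fold change was 0.35. BTG2, an antiproliferative gene, stood at 11.8, 12.6 and 12.3 FPKM against 4.7, 4.89 and 4.76 FPKM (log2 fold change 1.19, adjusted p = 1.8e-05). The zinc finger factors KLF6 (38.3, 41.3 and 31.1 against 19.7, 18 and 18.6 FPKM) and KLF10 (25, 25.7 and 24.5 against 13.6, 12.8 and 14.6 FPKM) had log2 fold changes of 0.93 and 0.83 (adjusted p of 0.00049 and 9.5e-05). These 3 genes passed with any 1 library left out. DUSP1, the phosphatase that switches off JNK and p38, stood at 16.1, 14.6 and 10.4 against 7.74, 7.39 and 7.05 FPKM (log2 fold change 0.79, adjusted p = 0.0045). EGR1 stood at 9.56, 12 and 8.98 against 6.19, 6.86 and 6.81 FPKM (log2 fold change 0.54, adjusted p = 0.0063). Like JUN, DUSP1 and EGR1 passed in only 1 of the 6 fits that left out a library, that without the third 2KR-MYB library, with adjusted p of up to 0.02 and 0.024 in the others. The remaining 6 did not pass. MYC, for example, stood at 165, 162 and 135 against 151, 169 and 159 FPKM.

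In the kinase cascades that lead to FOS and JUN, 1 gene passed. Of 17 tested genes of the RAS and ERK cascade (18 listed), 0 passed, and the median difference on the log2 scale was -0.041. The smallest adjusted p was that of SOS1, the exchange factor of RAS, whose log2 fold change was 0.25 with an adjusted p of 0.029 in limma. At an unadjusted p under 0.05 there were 4 of the 17, where 39.4% of all tested genes were, and at an adjusted p under 0.05 there were 2, where 26.9% were. Of 13 tested genes of the JNK and p38 cascades (15 listed), 0 were higher and 1 was lower in the 2KR-MYB rescue, MAPK12, a p38 kinase, at 13, 13.5 and 14.6 against 18.2, 17 and 17.6 FPKM (log2 fold change -0.34, adjusted p = 0.0051). That call held in 1 of the 6 fits without a library (without the third 2KR-MYB library, with adjusted p of up to 0.021 in the others) and was lost after the GC correction (-0.22, adjusted p = 0.059). The median log2 fold change of these 13 genes was -0.16. In limma 7 of them had an unadjusted p under 0.05, against 39.4% of all tested genes. An adjusted p under 0.05 was reached by 5, in both directions, against 26.9%.

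Of 12 tested factors that bind serum response or CRE elements, 1 was lower in the 2KR-MYB rescue, ELK4, a partner of serum response factor (7.74, 7.55 and 8 against 11.6, 10.9 and 10.8 FPKM, log2 fold change -0.47, adjusted p = 0.0011). In this list MEF2C was read at 6220 FPKM in the third ANAA-MYB library and at 28.7 to 37.7 FPKM in the other 5, a value of 1 library that is given here because it stands so far apart and was chosen after it was seen. Its limma adjusted p was 0.29. Of 12 tested genes that act on the turnover of FOS and JUN mRNA or protein, 1 was higher and 1 lower. CNOT7, a deadenylase, stood at 54.8, 56.3 and 61.7 against 88, 97.5 and 102 FPKM (log2 fold change -0.72, adjusted p = 0.00032). DET1, part of a ubiquitin ligase for JUN, stood at 5.12, 5.87 and 6.43 against 4.07, 3.91 and 3.66 FPKM (log2 fold change 0.48, adjusted p = 0.0064). The DET1 call was lost in 5 of the 6 fits without a library, all but that without the first 2KR-MYB library, with adjusted p of up to 0.025.

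Of 11 tested factors and cofactors that cooperate with AP-1 (12 listed), RUNX1, a blood transcription factor, was lower in the 2KR-MYB rescue (15.7, 14.9 and 13.4 against 20.4, 19 and 19.3 FPKM, log2 fold change -0.39, adjusted p = 0.0042). NFATC2, which binds composite sites with AP-1, was higher (5.13, 4.79 and 5.08 against 3.81, 3.5 and 3.37 FPKM, log2 fold change 0.40, adjusted p = 0.0065). Leaving out a library ended the call in 6 of 6 cases for NFATC2 (adjusted p of 0.013 to 0.027). For RUNX1 it did so in 4 of 6, those without the second 2KR-MYB library and each of the 3 ANAA-MYB libraries, with adjusted p of up to 0.017.

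Of 24 genes known as AP-1 targets in other cells, 14 were tested, 1 was higher and 4 were lower in the 2KR-MYB rescue, where 7.42% of all tested genes were lower. The median log2 fold change was -0.22. CCND1, which encodes cyclin D1, stood at 0.586, 0.409 and 0.378 against 2.97, 3.2 and 3.08 FPKM (log2 fold change -1.49, adjusted p = 7.6e-05). CCND1 averaged 0.458 FPKM in the 2KR-MYB rescue and passed the filter only through its ANAA-MYB values. The cytokine gene LIF stood at 1.25, 1.66 and 1.55 against 3.82, 5.03 and 3.62 FPKM (log2 fold change -1.05, adjusted p = 0.00082). TIMP1, an inhibitor of metalloproteinases, stood at 228, 214 and 204 against 333, 324 and 327 FPKM (log2 fold change -0.61, adjusted p = 0.0002). VEGFA, the angiogenic growth factor, was the 1 that was higher, at 55.4, 59.9 and 49.7 against 38.5, 37 and 38 FPKM (log2 fold change 0.52, adjusted p = 0.0013). TGFB1 stood at 41.5, 38.3 and 34.5 against 51.2, 53.3 and 51.7 FPKM (log2 fold change -0.45, adjusted p = 0.0026), a call that was lost without the second 2KR-MYB or the second ANAA-MYB library (adjusted p of 0.011 and 0.012). The metalloproteinase genes MMP1, MMP3 and MMP9, the best known AP-1 targets of fibroblasts, were under the filter, at no more than 0.223 FPKM in any library. With no filter on low values 9 of the 18 calls across the 8 lists were lost, those of ATF3, ATF4, DUSP1, EGR1, MAPK12, DET1, RUNX1, NFATC2 and TGFB1, with adjusted p of 0.015 to 0.033 in limma.

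**Figure D4:**
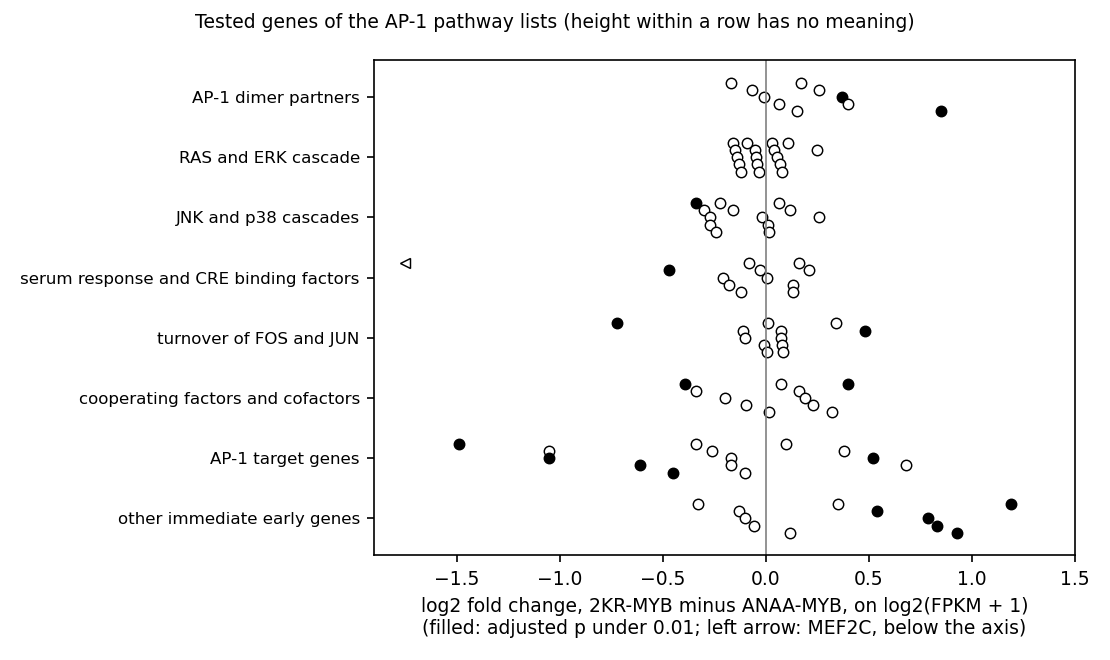
Log2 fold change (2KR-MYB over ANAA-MYB, from log2(FPKM + 1)) of the tested genes of the 8 AP-1 pathway lists, with 1 point per gene, filled where the limma adjusted p was under 0.01. All 5 filled points among other immediate early genes lie right of 0 and 4 of the 5 among AP-1 target genes lie left of it, while the RAS and ERK row has 0 filled points; the arrow is MEF2C, which rests on 1 library.

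Of 12 markers of K562 cells, all were detected in every library, and their summed level was 1890 to 2010 FPKM in the 2KR-MYB rescue and 2120 to 2510 FPKM in the ANAA-MYB rescue. The 12 markers went in both directions, with a median log2 fold change of -0.13. KLF1, GATA1 and TFRC were lower in the 2KR-MYB rescue (log2 fold changes of -0.65, -0.45 and -0.29, adjusted p of 0.00033, 0.0005 and 0.0078). Of all tested genes 7.42% were lower past the threshold. The TFRC call was lost in 5 of the 6 fits without a library, all but that without the first ANAA-MYB library, with adjusted p of up to 0.035. Of 10 markers of other cell types, 5 were tested, and the summed level of all 10 was 64.7 to 66.4 FPKM against 69.6 to 74.8 FPKM, most of it EPCAM at 43.1 to 50.2 FPKM. The B cell marker MS4A1 was listed at 0 in every library. LYZ and COL1A2 were lower (log2 fold changes of -0.99 and -0.72, adjusted p of 0.00066 and 0.0048) and COL1A1 was higher in the 2KR-MYB rescue (0.99, adjusted p = 0.0061). COL1A1 averaged 0.553 FPKM in the ANAA-MYB rescue and passed the filter only through its 2KR-MYB values. The COL1A1 call was lost in all but the fit without the third 2KR-MYB library and the COL1A2 call in all but that without the third ANAA-MYB library, with adjusted p of up to 0.025 and 0.021. The part of these markers in the JUN and JUNB results was not tested.

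The genes whose log2(FPKM + 1) followed each tested member most closely over the 6 libraries are given as a description, since the libraries of a rescue share a clone and all 12634 tested genes were searched. For JUN they were COL1A1 (Pearson r = 0.9964), at 2.21, 2.86 and 1.34 against 0.648, 0.6 and 0.411 FPKM, and LMBR1L (r = 0.9957), at 23.7, 24.9 and 21 against 19.7, 19.5 and 18.7 FPKM. For JUNB they were FAM83H (r = 0.9983) and MRPL12 (r = 0.9960), and for JUND ORAI1 (r = 0.9860) and POLA2 (r = 0.9797). For FOS they were RELN (r = 0.9998) and KLK13 (r = 0.9988), for FOSL1 SEC63 (r = 0.9949) and YWHAZ (r = 0.9870), and for FOSL2 YIPF5 (r = 0.9987) and CLK3 (r = 0.9958). No other FOS or JUN family gene was among these 12.

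Neighbours on the chromosome were also compared. The 10 tested genes nearest to JUN differed by a median of 0.09 on the log2 scale, and 2 of them, PLPP3 and FGGY, were higher in the 2KR-MYB rescue. The 10 nearest to JUNB had a median of -0.13, and 2 of them, DNASE2 and KLF1, were lower. KLF1 differed more than JUNB itself (log2 fold changes of -0.65 and -0.45). The same medians were -0.19 around JUND with 3 genes past the threshold (1 higher and 2 lower), 0.052 around FOS with 1, -0.15 around FOSB with 1, -0.058 around FOSL1 with 0 and 0.023 around FOSL2 with 1, each of these 3 single genes being higher. These counts of 0 to 3 of 10 stand beside the 13.0% of all tested genes that passed.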

How the data were processed

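RNA was sequenced from 3 replicates each of the 2KR-MYB and ANAA-MYB rescues. Per the submitters' processing notes, the tools were bcl2fastq 2.18.0.12, Trimmomatic 0.36, TopHat2 2.1.1, Cufflinks and Cuffdiff 2.2.1, with the build GRCh38. Poly(A) libraries were strand-specific and read as 150 bp pairs. The authors deposited FPKM per gene and replicate. The annotation and the scaling between libraries are not given in the sources that were used. Low values showed no common step (at most 7.43% of ratios of values under 0.5 FPKM lay within 1% of the most frequent ratio), so read depth is unknown. Another 12 columns of per-sample values were not used.

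Gene IDs were matched to symbols for 55854 of 58288 rows. Genes averaging 1 FPKM or more were tested with limma 3.58.1 in R 4.3.3 on log2(FPKM + 1), with empirical Bayes moderation with trend and Benjamini-Hochberg adjustment. The step was tested on simulated data. Single values, sums and ratios were compared by exact two-sided permutation tests (Python 3.11.15, scipy 1.17.1). Positions and promoter sequences came from RefSeq (GRCh38.p14). The 2 rescues were compared and no value was set against other cells. The replicates are described as biological, but p-values reflect the spread within 1 clone.

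The members and the lists were chosen with earlier results of these data known. The genes named are the 7 members, MYB, up to 5 genes past the threshold with the smallest adjusted p per list (or the 1 with the smallest adjusted p where none passed) and the 2 genes most like each tested member. MYC, MEF2C, the MMP genes, EPCAM, MS4A1 and the neighbours of members are named outside this rule and were chosen after their values were seen. Of the K562 markers past the threshold, 1 is not reported here. Alternatives were pseudocounts of 0.1 and 0.01, no filter, a minimum mean of 5 FPKM, upper quartile scaling, rescaling to a constant sum, quantile normalization, a robust prior, the replicate number as a block, leaving out each library, a threshold of 0.05, promoter windows of 150 bases and, added after the data were seen, a correction for GC content.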

Additional observations from a re-analysis of the deposited data

How the results depend on the processing

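The log2 fold changes of the 6 tested members kept their direction in all 17 alternatives that included them (16 for FOS, which a mean of at least 5 FPKM removed). Several of these could not alter a direction. The threshold of 0.05, the robust prior, the replicate block, no filter and the minimum mean of 5 FPKM leave a log2 fold change as it is. For the 5 members whose libraries did not overlap, leaving out 1 library or changing the pseudocount could not reverse the sign either. The number of members past the threshold was 1, and it was 0 with no filter on low values, 3 at a threshold of 0.05 (where FOSL2 at 0.26 and JUNB at -0.45 were also past it) and 0 to 1 with 1 library left out. JUN stood at 0.59 with no filter (limma adjusted p = 0.037), at 0.50 to 0.72 with 1 library left out, and its adjusted p ranged from 0.00074 to 0.037 over all alternatives. Of all tested genes 1642 passed, against 942 with no filter, 3402 at a threshold of 0.05, 1204 without the third 2KR-MYB library and 852 to 1045 without any other. The number of AP-1 pathway genes past the threshold was 18, and it was 10 with no filter, 37 at a threshold of 0.05 and 10 to 19 with 1 library left out (11 without the second 2KR-MYB and 10 without the second ANAA-MYB library). With fewer libraries each fit has fewer degrees of freedom, and with no filter more genes are tested; the causes were not tested further. The share of genes past the threshold that were higher in the 2KR-MYB rescue was 42.9%, and it was 54.5% after upper quartile scaling, 56.6% after rescaling every library to the same sum and 49.6% after quantile normalization. Upper quartile scaling multiplies a library by a single factor and so cannot move a share within it. The differences between rescues in summed FPKM and in the shares of JUN and JUNB moved by less than 1 SD (pooled over both rescues) in each alternative run for them. That of the JUN family sum, which overlapped between rescues, was 4.18 FPKM and ranged from 1.64 FPKM without the second 2KR-MYB library to 8.47 FPKM without the third 2KR-MYB library, with 2.44 FPKM without the first, and 6.48 FPKM without the second ANAA-MYB library and 1.77 FPKM without the third. In promoters cut to 150 bases, the TRE of FOSL2 and the CRE of JUND lay outside the window, and the MYB core was in 2 rather than 5 of 6.

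Over all tested genes, deviations from the group means of libraries with the same replicate number had correlations of -0.052, -0.035 and -0.0026. These values show no pairing over all genes, but cannot tell whether libraries with the same number were handled together. For JUN, JUNB, JUND, FOSL2 and FOSB the third library was the lowest in both rescues. With the replicate number as a block, 1089 genes passed, and JUN stayed the 1 member past the threshold. The limma adjusted p was 0.0043 for JUN and 0.012 for JUNB, against 0.0064 and 0.019 without the block. Of the 18 pathway calls, 4 were lost and 1 was gained. Unknown depth limits the statements on FOS and FOSB, whose values were near 1 FPKM.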
